A study of Saccharomyces cerevisiae with 12 samples.

Results

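The genes of sulfate assimilation and the methionine cycle in budding yeast, Saccharomyces cerevisiae, were read in 4 groups of cells by RNA sequencing. They are 33 genes, taken by systematic name from a table of 7126 features, and they cover sulfate uptake and reduction, the synthesis of methionine, cysteine and S-adenosylmethionine, the uptake of methionine and related compounds, and the regulators of these genes. Levels are given in RPKM (reads per kilobase of transcript, scaled to a fixed library size). Over the 12 samples 32 of the 33 genes had a mean of at least 1 RPKM, as had 6124 of the 7126 features. Passing this filter does not test the label. The exception was MET17, which was listed at 0 throughout.

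The groups had 3 samples each. R288D was a sac3∆ strain with the plasmid pRS315 encoding Sac3 R288D, a form of Sac3 with a single amino acid exchanged. sac3∆ carried empty pRS315. cdk8∆ lacked CDK8, named SSN3 in the table, and also carried empty pRS315. WT was a sac3∆ strain with pRS315 13MYC-SAC3, so that its Sac3 was tagged and made from a plasmid. Sac3 is the scaffold of TREX-2, a nuclear pore-associated complex that links transcription to mRNA export, and Cdk8 is the kinase of the Mediator complex, a coactivator of RNA polymerase II. R288D, sac3∆ and WT all lack chromosomal SAC3, whereas the cdk8∆ labels name no change at SAC3, so cdk8∆ and WT differ also in the source of Sac3. Whether Sac3 R288D carries the MYC tag is not stated. All cells were untreated and grew in synthetic medium without leucine. The labels do not say that the samples of a group came from separate cultures, so the p-values measure the spread between these samples, which may be technical.

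Yeast takes up sulfate, activates it with ATP and reduces it stepwise to sulfide. Sulfide is joined to O-acetylhomoserine to give homocysteine, which is methylated to methionine, and methionine is activated to S-adenosylmethionine, the methyl donor of the cell. Homocysteine and cysteine are interconverted by transsulfuration. Most of the pathway's genes are known targets of the activator Met4, which reaches DNA through Cbf1, with Met28, and through the related zinc finger proteins Met31 and Met32. When sulfur compounds are plentiful, Met4 is held in check by the ubiquitin ligase subunit Met30.

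By the reads recovered from the values, the samples held about 16183000 to 22438000 reads over 6162 features. The transcripts of the deleted genes matched the labels. SAC3 stood at 64.9, 62.5 and 63.8 RPKM in R288D, 0.0150, 0.0931 and 0.0295 RPKM in sac3∆, 33.6, 33.8 and 33.1 RPKM in cdk8∆, and 51.3, 53.5 and 48.9 RPKM in WT. SSN3 stood at 0.121, 0.284 and 0.211 RPKM in cdk8∆, against 45.5 to 61.1 RPKM in the other 9 samples. MET17 (YLR303W, chromosome XII 732542 to 733876), the sulfhydrylase that makes homocysteine from sulfide, was listed at 0 in all 12 samples, as was the marker gene URA3. The labels give no strain background. The auxotrophic marker genes HIS3, LEU2, TRP1, ADE2 and LYS2 were not listed at 0. Such values do not tell a chromosomal copy from one on a plasmid, and all cells carried pRS315 and grew without leucine.

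The DNA upstream of these genes held the cores of the known binding motifs far more often than that of genes at large. CACGTG, which reads alike on both strands, is the core of the Cbf1 motif, and CTGTGG, searched on both strands and so also as CCACAG, is that of the Met31 and Met32 motif. No base lies in a match of both in the sequences printed here. In the 500 bases before the coding start, 31 of the 33 genes (93.9%) held either core, against 18.5% of 6000 nuclear protein-coding genes. CACGTG was found upstream of 21 members (63.6%, against 6.23% of all genes) and CTGTGG likewise upstream of 21 (63.6%, against 13.2%). Both cores were found upstream of 11 members (33.3%, against 0.917%). The window of 500 bases was chosen after a shorter one, 250 bases before to 50 after the start, had been searched: there, 15 members (45.5%) held either core, against 9.48% of 6001 genes. Within the 500 bases all 7 genes of sulfate activation and reduction had CACGTG (4 of 7 in the shorter window), and all 4 transporters of methionine and related compounds had CTGTGG (2 of 4 in the shorter window). The genes without a match in the 500 bases were SAM4 and MET31. MMP1 and MHT1 share the DNA between them, so the same 2 CTGTGG matches count for both genes. A match is a description of the letters and not a measured binding site.

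The sequences below were chosen by the changes described later. MET6, SAM2 and MET3 had the largest falls in sac3∆, and MET4 and MET32 had the largest positive changes there. That of MET32 did not pass the test and was 0.21 without WT replicate 1. MMP1, added after its values were seen, changed in opposite directions in the sac3 mutants and in cdk8∆. All sequences were read 5′ to 3′ on the gene's strand from the RefSeq genome of build R64. They stop short of the last 100 bases before the coding start and have the motif cores in capitals. The regions are chrV:342268-342567 (MET6, minus strand), chrIV:1454565-1454864 (SAM2, minus strand), chrX:455839-456138 (MET3, plus strand), chrXIV:427335-427634 (MET4, plus strand), chrIV:964666-964965 (MET32, minus strand) and chrXII:17706-17855 (MMP1, plus strand).
MET6: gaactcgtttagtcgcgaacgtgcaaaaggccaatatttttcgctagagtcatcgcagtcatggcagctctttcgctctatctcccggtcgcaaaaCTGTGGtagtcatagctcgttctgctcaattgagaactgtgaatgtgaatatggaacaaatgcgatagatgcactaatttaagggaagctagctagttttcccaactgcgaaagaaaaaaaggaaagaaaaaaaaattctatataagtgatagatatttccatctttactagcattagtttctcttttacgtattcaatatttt
SAM2: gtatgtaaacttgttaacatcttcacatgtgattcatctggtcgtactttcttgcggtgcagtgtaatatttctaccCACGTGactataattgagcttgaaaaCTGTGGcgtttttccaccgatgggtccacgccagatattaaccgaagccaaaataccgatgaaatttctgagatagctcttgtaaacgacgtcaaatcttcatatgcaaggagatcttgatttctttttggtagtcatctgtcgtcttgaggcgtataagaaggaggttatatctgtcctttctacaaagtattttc
MET3: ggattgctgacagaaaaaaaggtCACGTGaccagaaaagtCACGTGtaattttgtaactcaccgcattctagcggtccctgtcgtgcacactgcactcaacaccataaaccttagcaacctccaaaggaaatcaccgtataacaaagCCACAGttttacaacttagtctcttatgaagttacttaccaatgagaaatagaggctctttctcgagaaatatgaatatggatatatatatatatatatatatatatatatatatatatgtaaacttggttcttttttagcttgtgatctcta
MET4: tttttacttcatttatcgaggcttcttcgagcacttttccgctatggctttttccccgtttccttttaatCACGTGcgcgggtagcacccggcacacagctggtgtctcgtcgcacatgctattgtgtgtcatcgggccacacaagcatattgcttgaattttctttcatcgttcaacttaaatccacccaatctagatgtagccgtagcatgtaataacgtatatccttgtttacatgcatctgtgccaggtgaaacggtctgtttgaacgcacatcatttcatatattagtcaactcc
MET32: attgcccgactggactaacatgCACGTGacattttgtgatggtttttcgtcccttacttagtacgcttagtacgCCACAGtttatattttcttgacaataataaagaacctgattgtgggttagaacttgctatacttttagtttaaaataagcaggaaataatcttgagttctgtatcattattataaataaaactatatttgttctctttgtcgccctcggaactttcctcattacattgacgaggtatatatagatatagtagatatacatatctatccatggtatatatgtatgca
MMP1: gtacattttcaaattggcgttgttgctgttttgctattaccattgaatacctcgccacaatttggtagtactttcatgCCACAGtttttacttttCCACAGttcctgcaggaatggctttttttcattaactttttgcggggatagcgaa
SAM2 has a CACGTG and a CTGTGG in this window, MET3 has 2 CACGTG and a CCACAG, and MMP1 has 2 CCACAG. The MMP1 window lies in the 342 bases (chrXII:17614-17955) that separate MMP1 from the divergently transcribed MHT1.

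**Figure D1:**
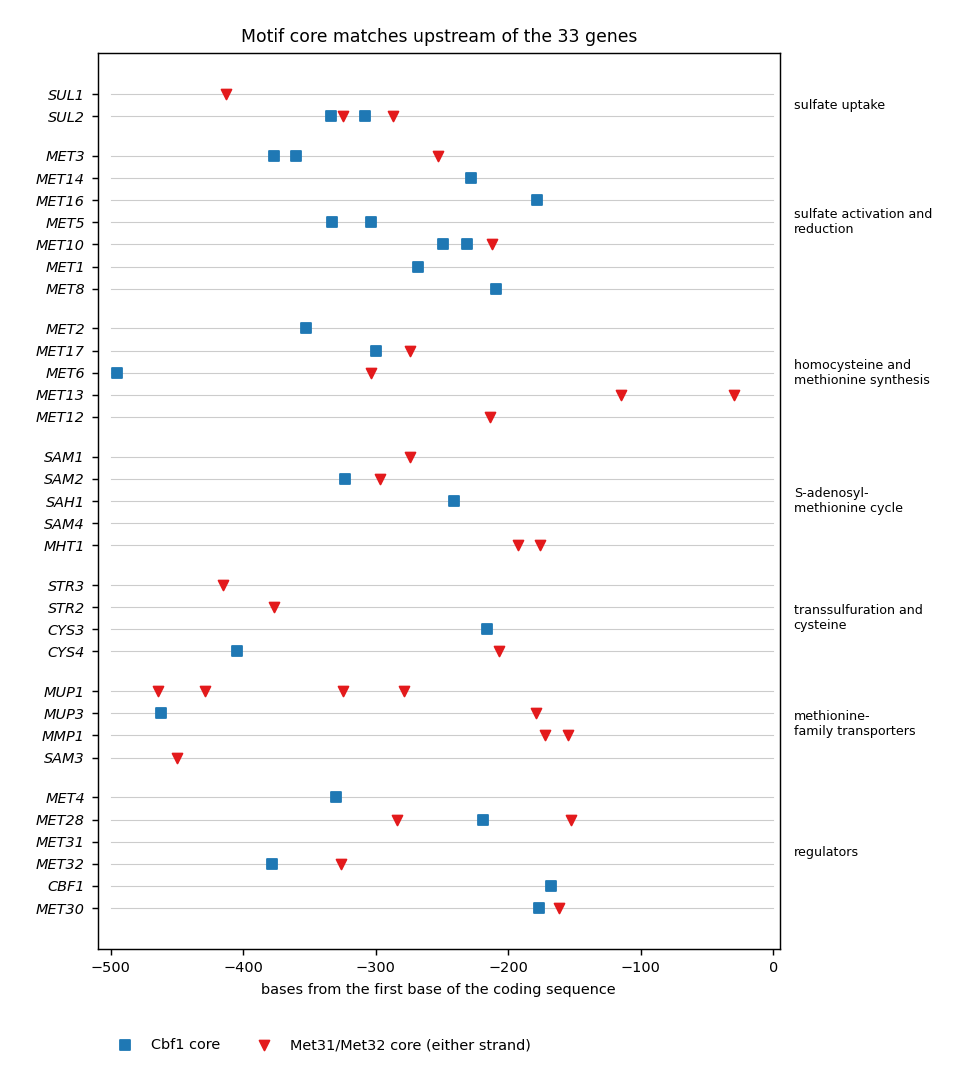
Matches of CACGTG and of CTGTGG (either strand) by distance from the coding start, in bases, in the 500 bases upstream of each of the 33 genes, grouped by role. All genes except SAM4 and MET31 have at least 1 match.

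Changes were tested with limma on log2(RPKM + 1) over the 6124 features whose mean reached 1 RPKM, with a Benjamini-Hochberg adjusted p under 0.05 as a call, and are given as log2 changes ± SE. Against WT, most of the pathway was lower in both sac3 mutants and higher in cdk8∆. In R288D 5 of the 32 genes tested were higher and 18 lower, while 26.3% of all features were higher and 24.4% lower (50.8% called). In sac3∆ 4 were higher and 17 lower, against 27.4% and 24.1% of all features (51.5% called). In cdk8∆ 21 were higher and 8 lower, against 31.5% and 30.6% of all features (62.1% called). The members' median change was -0.39 in R288D, -0.39 in sac3∆ and 0.32 in cdk8∆, beside medians over all features of 0.02 in R288D, 0.04 in sac3∆ and 0.01 in cdk8∆. Changes of at least 1 on the log2 scale were falls in 7 members in R288D (0.865% of all features fell so) and in 8 in sac3∆ (0.947%), with no rise of that size in either, while in cdk8∆ 7 members rose (4.59% of all features) and 2, MET6 and SAM1, fell (3.36%) by that much. The 3 comparisons share the WT samples. With the sample medians set equal, the members in sac3∆ split into 2 higher and 21 lower, and 37.75% of all called features were then higher instead of 53.26%; in R288D 38.79% instead of 51.83% were higher.

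The calls combined in many patterns, several of them held by a single gene, and only the 3 most frequent are given here. Lower in R288D and sac3∆ and higher in cdk8∆ were 8 genes: SUL2, MET14, MET16, MET5, MET10, MET2, STR3 and MMP1. Lower in all 3 strains were 7 genes: MET3, MET6, SAM1, SAM2, SAH1, CYS4 and SAM3. After quantile normalization MET3, SAM2 and SAH1 were no longer called lower in cdk8∆, nor SAH1 in R288D. As a share of the reads recovered, MET3 was not lower in cdk8∆ than in WT. A further 7, SUL1, MET1, MET8, STR2, MET28, MET32 and CBF1, were higher in cdk8∆ and not called in either sac3 mutant. The share of all features with each of these patterns was not counted, so the counts do not show a pattern particular to the pathway. In RNA from a whole culture, fewer cells with a transcript and less of it per cell cannot be told apart. Together the 33 genes took 0.739 to 0.778% of the recovered reads in R288D, 0.648 to 0.656% in sac3∆, 1.14 to 1.16% in cdk8∆ and 1.24 to 1.28% in WT, so the groups did not overlap.

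**Figure D2:**
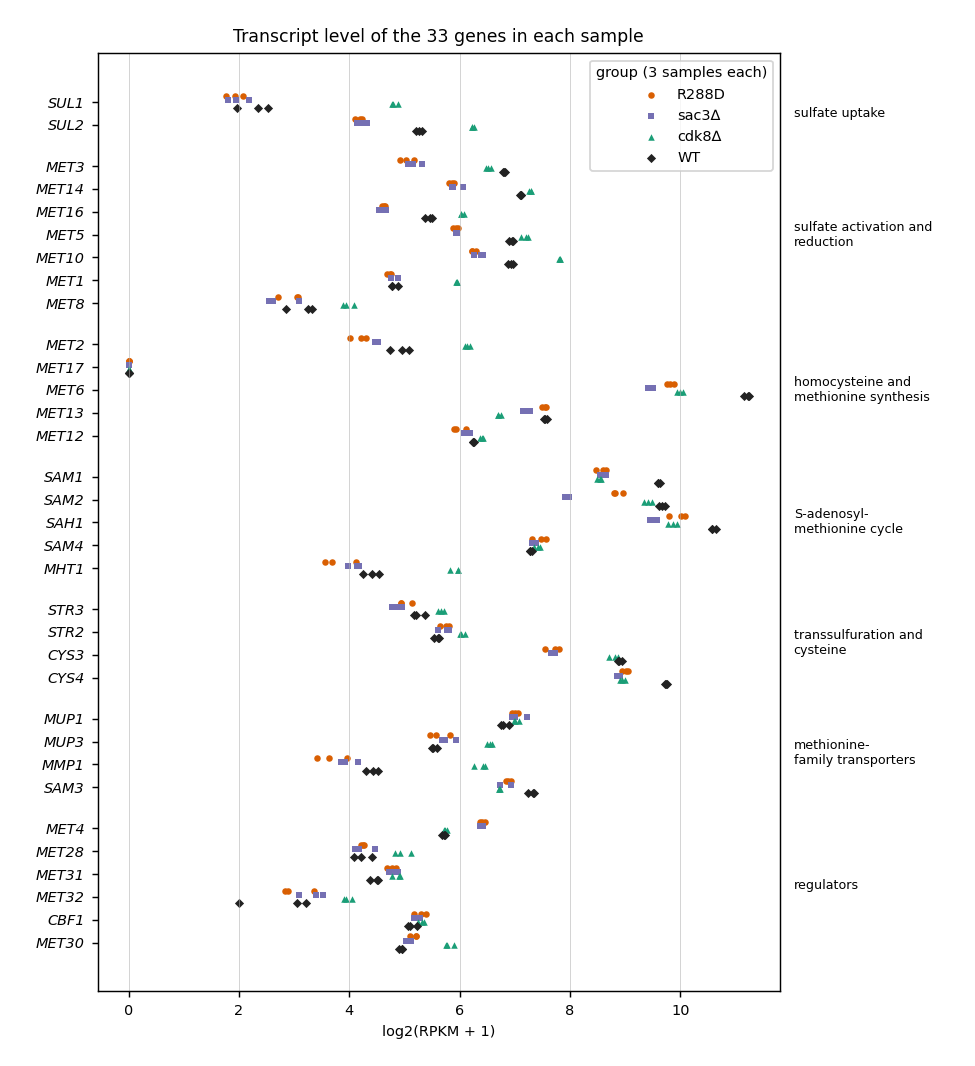
Level of each of the 33 genes, as log2(RPKM + 1), in each of the 12 samples, by role, with 3 samples each in R288D, sac3∆, cdk8∆ and WT. MET17 lies at 0 in every sample, and most genes of sulfate reduction have their R288D and sac3∆ points left of WT.

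SUL1 (YBR294W, chromosome II 789235 to 791814) and SUL2 (YLR092W, chromosome XII 323544 to 326225) encode the high-affinity sulfate permeases of the plasma membrane. SUL2 stood at 16.1, 17.4 and 17.8 RPKM in R288D, 18.9, 17.8 and 16.6 RPKM in sac3∆, 73.9, 75.8 and 73.6 RPKM in cdk8∆, and 35.9, 37.2 and 39.0 RPKM in WT. Both sac3 mutants lay wholly below WT, and cdk8∆ lay wholly above it. SUL2 changed by -1.08 ± 0.06 in R288D (limma adjusted p = 8.8e-08), -1.03 ± 0.06 in sac3∆ (1.2e-07) and 0.98 ± 0.06 in cdk8∆ (5.5e-08). SUL1 stood at 2.40, 3.19 and 2.80 RPKM in R288D, 3.54, 2.84 and 2.50 RPKM in sac3∆, 26.4, 28.7 and 26.6 RPKM in cdk8∆, and 4.09, 2.89 and 4.75 RPKM in WT. Its rise of 2.54 ± 0.15 in cdk8∆ (limma adjusted p = 5.3e-08) was the largest among the members in that comparison. The SUL1 changes of -0.36 ± 0.15 in R288D and -0.30 ± 0.15 in sac3∆ did not pass, but both passed without WT replicate 2 (-0.52 and -0.46), and that in R288D also without R288D replicate 2 (-0.43). With medians set equal both were called (-0.43 in R288D, -0.39 in sac3∆), and after quantile normalization that in R288D was (-0.45). The coding sequences of SUL1 and SUL2 are 63.4% identical, with a longest shared run of 24 bases.

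In sulfate activation and reduction 5 of 7 genes were lower and none was higher in each sac3 mutant, beside 24.4% of all features lower in R288D and 24.1% in sac3∆. In cdk8∆ 6 of the 7 were higher, beside 31.5% of all features. MET3 (YJR010W, chromosome X 456239 to 457774), the ATP sulfurylase that opens the pathway, stood at 31.8, 34.9 and 29.4 RPKM in R288D, 38.9, 34.6 and 32.4 RPKM in sac3∆, 90.2, 88.5 and 93.8 RPKM in cdk8∆, and 109.7, 111 and 112 RPKM in WT. No mutant group overlapped WT. MET3 changed by -1.76 ± 0.07 in R288D (limma adjusted p = 7.9e-09), -1.63 ± 0.07 in sac3∆ (1.4e-08) and -0.29 ± 0.07 in cdk8∆ (0.0040), where quantile normalization ended the call (-0.13).

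MET14 (YKL001C, chromosome XI 438777 to 439385), which phosphorylates the product of MET3, stood at 58.8, 56.8 and 54.7 RPKM in R288D, 57.1, 65.6 and 57.9 RPKM in sac3∆, 152, 156 and 155 RPKM in cdk8∆, and 138, 138 and 136 RPKM in WT. It changed by -1.26 ± 0.05 in R288D (limma adjusted p = 1.1e-08) and 0.17 ± 0.05 in cdk8∆ (0.016). The small rise in cdk8∆ was not called without cdk8∆ replicate 2 (0.16) or with medians set equal (0.11), and was 0.39 after quantile normalization. MET16, the reductase that yields sulfite, averaged 23.6 ± 0.495 RPKM in R288D, 23.2 ± 1.14 in sac3∆, 65.0 ± 1.54 in cdk8∆ and 42.6 ± 1.87 in WT (SD, n = 3 each). It was lower in R288D (-0.82 ± 0.05) and sac3∆ (-0.85 ± 0.05) and higher in cdk8∆ (0.60 ± 0.05).

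MET5 and MET10 encode the subunits of sulfite reductase, and both showed the same order of groups. MET5 (YJR137C, chromosome X 678957 to 683285) stood at 61.4, 57.7 and 60.4 RPKM in R288D, 60.4, 60.0 and 60.9 RPKM in sac3∆, 147, 137 and 149.9 RPKM in cdk8∆, and 124, 123 and 118 RPKM in WT. MET10 (YFR030W, chromosome VI 213312 to 216419) stood at 73.9, 77.5 and 73.6 RPKM in R288D, 84.7, 82.7 and 75.7 RPKM in sac3∆, 223, 224 and 226 RPKM in cdk8∆, and 117, 124 and 121 RPKM in WT. The rise in cdk8∆ was larger for MET10 (0.89 ± 0.05, limma adjusted p = 2.3e-08) than for MET5 (0.24 ± 0.05, adjusted p = 0.00055). The difference between the genes was not tested. After quantile normalization the rises were 1.14 for MET10 and 0.46 for MET5. MET1 and MET8, which make the siroheme cofactor of sulfite reductase, rose in cdk8∆ by 1.13 ± 0.05 and 0.83 ± 0.17. In R288D they changed by -0.08 ± 0.05 and -0.20 ± 0.17, and in sac3∆ by -0.01 ± 0.05 and -0.39 ± 0.17, none of which passed. MET8 was called lower in sac3∆ without WT replicate 2 (-0.53) or sac3∆ replicate 3 (-0.55), with medians set equal (-0.47) and after quantile normalization (-0.58), which also gave a smaller rise of 0.51 in cdk8∆. MET1 was called lower in R288D with medians set equal (-0.16) and after quantile normalization (-0.20). Summed over the 7 genes, the level was 279.4 ± 5.38 RPKM in R288D, 292.9 ± 6.97 in sac3∆, 753.8 ± 10.3 in cdk8∆ and 568 ± 4.03 in WT (SD, n = 3 each).

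**Figure D3:**
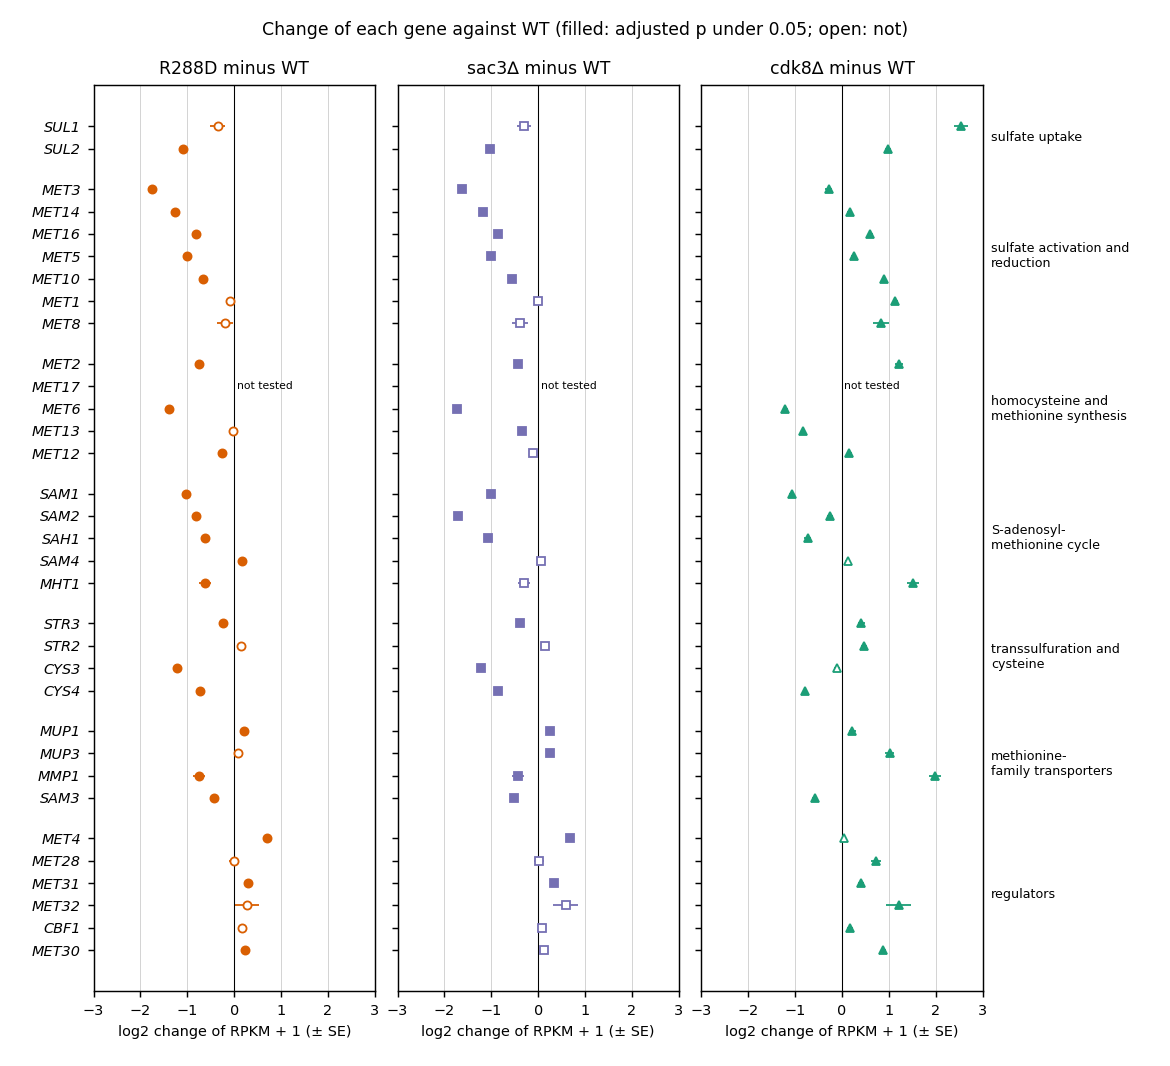
Log2 change of RPKM + 1 against WT (± SE) for the 32 genes tested, by role, in R288D, sac3∆ and cdk8∆; filled points passed the adjusted p threshold of 0.05 and open ones did not. The genes of sulfate reduction lie left of 0 or near it in the sac3 mutants, and all but MET3 lie right of it in cdk8∆.

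In the steps that make homocysteine and methionine, the abundant MET6 fell in every mutant. MET6 (YER091C, chromosome V 339864 to 342167), the methionine synthase, stood at 944, 869.6 and 901 RPKM in R288D, 723, 718 and 681 RPKM in sac3∆, 1054, 985 and 1015 RPKM in cdk8∆, and 2423, 2391 and 2280.0 RPKM in WT. It changed by -1.38 ± 0.05 in R288D (limma adjusted p = 4.5e-09), -1.74 ± 0.05 in sac3∆ (5.2e-10) and -1.22 ± 0.05 in cdk8∆ (4.5e-09), where quantile normalization left -0.52, still called. MET2, which acetylates homoserine, moved apart in the mutants: it averaged 17.1 ± 1.79 RPKM in R288D, 21.6 ± 0.442 in sac3∆, 69.5 ± 2.09 in cdk8∆ and 29.5 ± 3.71 in WT (SD, n = 3 each), changes of -0.75 ± 0.09, -0.43 ± 0.09 and 1.22 ± 0.09.

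MET13 and MET12 encode methylenetetrahydrofolate reductases, which supply the methyl group for MET6, and they differed. MET13 (YGL125W, chromosome VII 272520 to 274322) stood at 187, 179 and 188 RPKM in R288D, 140.0, 153 and 149.7 RPKM in sac3∆, 103, 106 and 102 RPKM in cdk8∆, and 184, 190.2 and 187 RPKM in WT. R288D overlapped WT (-0.02 ± 0.04), while MET13 fell by 0.34 ± 0.04 in sac3∆ (limma adjusted p = 4.9e-05) and by 0.84 ± 0.04 in cdk8∆ (1.7e-08). After quantile normalization the change in R288D was positive and called (0.15), and that in sac3∆ was -0.18, still called. MET12 averaged 62.3 ± 5.03 RPKM in R288D, 69.7 ± 2.69 in sac3∆, 83.3 ± 1.72 in cdk8∆ and 74.9 ± 0.553 in WT (SD, n = 3 each). Its fall in R288D (-0.27 ± 0.06) was called, and that in sac3∆ (-0.10 ± 0.06) only without R288D replicate 2, which enters the shared spread (-0.10), or with medians set equal (-0.19). The rise of MET12 in cdk8∆ (0.15 ± 0.06) was lost without any 1 of the 3 WT samples or without cdk8∆ replicate 2 or 3 (0.14 to 0.16), or with medians set equal (0.10), and was 0.23 after quantile normalization.

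Of the S-adenosylmethionine cycle, SAH1 was the most abundant member after MET6, and SAM1 and SAM2 also averaged over 300 RPKM. SAM1 (YLR180W, chromosome XII 515262 to 516410) and SAM2 (YDR502C, chromosome IV 1453310 to 1454464) encode S-adenosylmethionine synthetases. SAM1 stood at 385, 354 and 403 RPKM in R288D, 373, 400.1 and 384 RPKM in sac3∆, 372, 358 and 379 RPKM in cdk8∆, and 796, 776 and 773 RPKM in WT. Thus the 3 mutants lay together, and SAM1 changed by -1.04 ± 0.05 in R288D (limma adjusted p = 5.3e-08), -1.02 ± 0.05 in sac3∆ (5.9e-08) and -1.08 ± 0.05 in cdk8∆ (1.1e-08; -0.54 after quantile normalization). SAM2 stood at 495, 443 and 451 RPKM in R288D, 241, 248 and 250.5 RPKM in sac3∆, 714, 649 and 679 RPKM in cdk8∆, and 842, 817 and 781 RPKM in WT. No pair of groups overlapped for SAM2. It changed by -0.81 ± 0.05 in R288D (limma adjusted p = 5.4e-07) and -1.72 ± 0.05 in sac3∆ (9.0e-10), and the change in R288D was -0.49 after quantile normalization. In cdk8∆ it was lower by the values as deposited (-0.26 ± 0.05, limma adjusted p = 0.0016) and higher after quantile normalization (0.36).

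The share of SAM2 in the summed level of SAM1 and SAM2 was 54.9 ± 1.83% in R288D, 39.0 ± 0.628% in sac3∆, 64.8 ± 0.821% in cdk8∆ and 51.0 ± 0.612% in WT (SD, n = 3 each; no test was run on the share). The coding sequences are 83.0% identical with a longest shared run of 59 bases, and neither the read length nor the handling of shared reads is given, so the split between the paralogues is uncertain. Their sum does not depend on that split as long as shared reads were counted: it was 879.7, 796.1 and 853.5 RPKM in R288D, 613.8, 648.2 and 634.9 RPKM in sac3∆, 1086, 1007 and 1058 RPKM in cdk8∆, and 1637, 1593 and 1554 RPKM in WT.

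SAH1 (YER043C, chromosome V 235770 to 237119), which hydrolyses S-adenosylhomocysteine, stood at 1080.0, 885 and 1032 RPKM in R288D, 695, 759 and 734 RPKM in sac3∆, 985, 873 and 932 RPKM in cdk8∆, and 1518, 1592 and 1518 RPKM in WT. All mutant samples lay below WT. SAH1 changed by -0.63 ± 0.08 in R288D (limma adjusted p = 3.1e-05), -1.08 ± 0.08 in sac3∆ (6.0e-07) and -0.73 ± 0.08 in cdk8∆ (5.6e-06). Quantile normalization ended the call in R288D (-0.16), left -0.63 in sac3∆ and gave 0.03, not called, in cdk8∆. SAM4 and MHT1 encode the methyltransferases that remake methionine from homocysteine with S-adenosylmethionine or S-methylmethionine as donor. MHT1 averaged 13.0 ± 3.03 RPKM in R288D, 16.1 ± 1.20 in sac3∆, 59.7 ± 3.42 in cdk8∆ and 20.2 ± 2.01 in WT (SD, n = 3 each). It was lower in R288D (-0.62 ± 0.13) and higher in cdk8∆ (1.52 ± 0.13). In sac3∆ the MHT1 change of -0.31 ± 0.13 did not pass; it passed without WT replicate 1 (-0.38), and, at -0.31, without R288D replicate 1 or 2, which enter the shared spread, and with only the 2 groups fitted. It also passed with medians set equal (-0.40) and after quantile normalization (-0.49). SAM4 stood at 188, 159 and 177 RPKM in R288D, overlapping the 154, 159 and 155 RPKM in WT. Its call in R288D (0.16 ± 0.06, limma adjusted p = 0.039) was lost without any 1 of WT replicates 1 to 3, R288D replicates 1 and 3, sac3∆ replicate 2 or cdk8∆ replicate 3 (0.10 to 0.17), with medians set equal (0.09), and, at 0.16, with only the 2 groups fitted or with no mean trend in the variance. SAM4 was called in cdk8∆ (0.12) without R288D replicate 2 or with only the 2 groups fitted. After quantile normalization it was called higher in all 3 mutants (0.30 in R288D, 0.21 in sac3∆ and 0.38 in cdk8∆).

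Of the 4 transsulfuration genes 3 were lower in R288D (24.4% of all features were) and 3 in sac3∆ (24.1%). CYS3 (YAL012W, chromosome I 130799 to 131983), which makes cysteine from cystathionine, stood at 211, 187 and 221 RPKM in R288D, 201, 212 and 202 RPKM in sac3∆, 464, 416 and 447 RPKM in cdk8∆, and 467, 493 and 474 RPKM in WT. It changed by -1.21 ± 0.06 in R288D (limma adjusted p = 6.8e-08) and -1.22 ± 0.06 in sac3∆ (6.0e-08). In cdk8∆ its change of -0.11 ± 0.06 did not pass, while it was called lower with medians set equal (-0.17) and higher after quantile normalization (0.40). CYS4, which makes cystathionine from homocysteine, averaged 514 ± 19.8 RPKM in R288D, 469 ± 10.1 in sac3∆, 493 ± 16.5 in cdk8∆ and 855 ± 14.8 in WT (SD, n = 3 each). It changed by -0.73 ± 0.05 in R288D, -0.87 ± 0.05 in sac3∆ and -0.79 ± 0.05 in cdk8∆. After quantile normalization these were -0.37 in R288D, -0.52 in sac3∆ and -0.12 in cdk8∆, each still called. STR3 and STR2, which run the path from cysteine back to homocysteine, rose in cdk8∆ by 0.41 ± 0.07 and 0.46 ± 0.06. STR3 was lower in sac3∆ (-0.39 ± 0.07) and in R288D (-0.25 ± 0.07), where the call was lost without WT replicate 3 (-0.19) or R288D replicate 3 (-0.22). STR2 was not called in R288D (0.15 ± 0.06) or sac3∆ (0.14 ± 0.06), but was called higher in both without sac3∆ replicate 2 (0.15 and 0.20), and in R288D without R288D replicate 3 (0.19).

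The transporters did not move as a block. MMP1 (YLL061W, chromosome XII 17956 to 19707), the S-methylmethionine permease, stood at 9.69, 14.6 and 11.3 RPKM in R288D, 16.9, 14.2 and 13.4 RPKM in sac3∆, 75.8, 87.0 and 85.3 RPKM in cdk8∆, and 20.4, 18.6 and 21.9 RPKM in WT. It rose by 1.97 ± 0.13 in cdk8∆ (limma adjusted p = 1.1e-07), fell by 0.74 ± 0.13 in R288D (0.00046) and by 0.43 ± 0.13 in sac3∆ (0.013), the last not called without sac3∆ replicate 3 (-0.37). SAM3, the S-adenosylmethionine permease, was lower in all 3 mutants, with 117 ± 3.29 RPKM in R288D, 110.3 ± 8.82 in sac3∆, 104 ± 0.820 in cdk8∆ and 157 ± 6.61 in WT (SD, n = 3 each). Its change in cdk8∆ was -0.59 as deposited and -0.38 after quantile normalization. MUP1, the high-affinity methionine permease, was slightly higher in all 3, by 0.20 ± 0.07 in R288D, 0.25 ± 0.07 in sac3∆ and 0.22 ± 0.07 in cdk8∆. The MUP1 calls were lost in R288D without WT replicate 1 or 2 or R288D replicate 1 (0.17 to 0.19), in cdk8∆ without WT replicate 1 or cdk8∆ replicate 2 (0.19 each), and in both sac3 mutants with medians set equal (0.13 in R288D, 0.16 in sac3∆), and quantile normalization gave 0.39 in cdk8∆. MUP3, a low-affinity methionine permease, rose in cdk8∆ to 92.5 ± 2.78 RPKM, against 45.4 ± 1.53 RPKM in WT (1.01 ± 0.09). Its change in R288D (0.08 ± 0.09) did not pass, and its call in sac3∆ (0.25 ± 0.09) was lost without WT replicate 2 or 3 or sac3∆ replicate 1 (0.17 to 0.24), with medians set equal (0.16) and after quantile normalization (0.17).

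Of the 6 regulator genes 3 were higher in R288D, 2 in sac3∆ and 5 in cdk8∆, beside 26.3% of all features in R288D, 27.4% in sac3∆ and 31.5% in cdk8∆, and none was called lower. MET4 (YNL103W, chromosome XIV 427735 to 429753) stood at 81.5, 87.4 and 83.5 RPKM in R288D, 85.1, 82.1 and 81.8 RPKM in sac3∆, 53.8, 52.0 and 51.8 RPKM in cdk8∆, and 51.5, 50.4 and 52.2 RPKM in WT. The activator's transcript was thus higher in every sac3 mutant sample than in every WT or cdk8∆ sample. MET4 rose by 0.70 ± 0.04 in R288D (limma adjusted p = 1.7e-07) and 0.68 ± 0.04 in sac3∆ (2.1e-07), and changed by 0.03 ± 0.04 in cdk8∆. MET31 rose in R288D (0.30 ± 0.07), sac3∆ (0.33 ± 0.07) and cdk8∆ (0.40 ± 0.07); quantile normalization ended the calls in R288D (0.15) and sac3∆ (0.18) and left 0.22 in cdk8∆.

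MET30, the ubiquitin ligase subunit that restrains Met4, stood at 33.5, 35.9 and 35.9 RPKM in R288D, 32.0, 31.6 and 33.5 RPKM in sac3∆, 53.0, 58.8 and 53.6 RPKM in cdk8∆, and 29.9, 28.8 and 30.2 RPKM in WT. It rose by 0.87 ± 0.05 in cdk8∆ (limma adjusted p = 6.7e-08) and 0.23 ± 0.05 in R288D (0.0032; 0.14 and not called after quantile normalization), and changed by 0.12 ± 0.05 in sac3∆. MET28 and MET32 rose in cdk8∆, by 0.72 ± 0.11 and 1.21 ± 0.26. MET32 had few reads and an uneven WT group: 6.38, 9.31 and 6.13 RPKM in R288D, 10.6, 7.49 and 9.59 RPKM in sac3∆, 14.4, 15.5 and 14.1 RPKM in cdk8∆, and 3.02, 8.28 and 7.27 RPKM in WT. Its change in sac3∆ (0.58 ± 0.26) passed only without WT replicate 2 (0.81). Without WT replicate 1, the sample at 3.02 RPKM, the change was 0.21 and not called. CBF1 changed by 0.15 ± 0.06 in R288D, 0.09 ± 0.06 in sac3∆ and 0.18 ± 0.06 in cdk8∆. Only the last was called, and not without WT replicate 1 or 2 or cdk8∆ replicate 1 or 3 (0.14 to 0.17), with medians set equal (0.12) or after quantile normalization (0.07); the change in R288D was called without WT replicate 3 (0.20) or R288D replicate 3 (0.21).

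Between R288D and sac3∆, which differ in whether a mutant Sac3 is encoded or none, few members passed the test. Of the 32 genes 4 were higher in R288D, while 1.37% of all features were called and 1.05% were higher. These were SAM2 (0.90 ± 0.05, limma adjusted p = 3.2e-06), SAH1 (0.45 ± 0.08, 0.0092), MET6 (0.36 ± 0.05, 0.0050) and MET13 (0.32 ± 0.04, 0.0025). The first 3 are among the 6 members at 300 RPKM or more. For MET6 the lowest R288D sample was at 869.6 RPKM and the highest sac3∆ sample at 723 RPKM. The other 28 changes lay between -0.33 and 0.19 and did not pass. The largest of them was MET2 (-0.33 ± 0.09, adjusted p = 0.14), whose 3 R288D values lay below the 3 sac3∆ values.

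Among the 4 calls between R288D and sac3∆, SAM2 alone was kept under every alternative tried. With only these groups fitted, 1 member (SAM2) and 17 features were called. The SAH1 call was lost without sac3∆ replicate 1 (0.41), when 3 members and 53 features were called. Without R288D replicate 2 the counts were 9 members and 468 features, and CYS4 (0.16), MET12 (-0.23), MHT1 (-0.48), MMP1 (-0.46) and MUP3 (-0.27) were called as well. Replicate 2 thus decided these counts; for MMP1 its value was 14.6 RPKM beside 9.69 and 11.3 RPKM in the other R288D samples, and for MHT1 16.4 RPKM beside 10.7 and 11.8 RPKM.

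**Figure D4:**
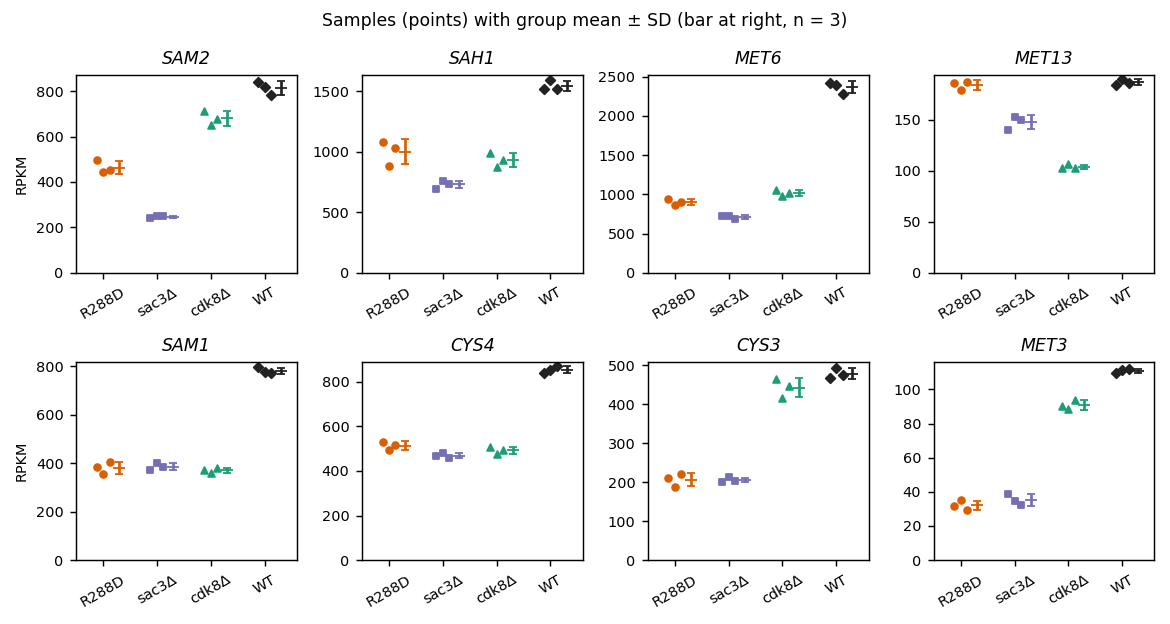
RPKM of SAM2, SAH1, MET6, MET13, SAM1, CYS4, CYS3 and MET3 in each sample (points) with the group mean ± SD (n = 3) for R288D, sac3∆, cdk8∆ and WT. SAM2 has 4 separate levels, with R288D at 443 to 495 RPKM and sac3∆ at 241 to 250.5 RPKM, while for SAM1 and CYS4 the 3 mutants lie close together below WT.

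Set directly against cdk8∆, which carries the same empty vector as sac3∆, the sac3 mutants were lower in most of the pathway. In R288D 22 of 32 genes were lower than in cdk8∆ and 3 higher, beside 31.4% and 32.3% of all features (63.7% called). In sac3∆ 22 were lower than in cdk8∆ and 2 higher, beside 31.2% and 32.9% of all features (64.1% called). All 9 genes of sulfate uptake, activation and reduction were lower by at least 1 on the log2 scale in both mutants, whereas 4.88% of all features were in R288D and 4.56% in sac3∆. Their changes against cdk8∆ ran up to -2.90 ± 0.15 in R288D and -2.84 ± 0.15 in sac3∆, both for SUL1. Higher than in cdk8∆ were MET4 (0.67 ± 0.04 in R288D, 0.65 ± 0.04 in sac3∆) and MET13 (0.82 ± 0.04 in R288D, 0.50 ± 0.04 in sac3∆). SAM3 was called higher than in cdk8∆ in R288D (0.16 ± 0.06) and not in sac3∆ (0.08 ± 0.06). The call in R288D was lost without R288D replicate 1 (0.14) or cdk8∆ replicate 1 or 2 (0.16 each), or after quantile normalization (0.08). SAM1 did not pass in either (0.04 ± 0.05 in R288D, 0.06 ± 0.05 in sac3∆), and quantile normalization made both changes called falls (-0.20 and -0.19).

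The direction of change also followed abundance across all features, and most plainly in cdk8∆. There, features with a mean of 300 RPKM or more that are not in the pathway had a median change of -0.58, with 78.1% called lower, and those from 1 to 30 RPKM had a median of 0.26, with 48.1% called higher. Of the 6 members at 300 RPKM or more 5 were lower in cdk8∆, with a median of -0.76, so their share was near that of other features of like abundance. All 6 members under 30 RPKM were higher, with a median of 1.02. From 30 to 100 RPKM 12 of 14 were higher, beside 30.9% of other features, and the median was 0.53 beside 0.01 in other features. The authors' scaling to library size also differed between groups, with the size used being 0.967 to 0.991 times the reads recovered in R288D, 0.969 to 0.999 times in sac3∆, 1.14 to 1.18 times in cdk8∆ and 0.864 to 0.892 times in WT. The part of abundance and of this scaling in the changes was not tested.

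In the sac3 mutants the medians of other features spanned less, and those of the members lay below them by differing amounts. At 300 RPKM or more the other features had a median of -0.33 in R288D and -0.30 in sac3∆, with 59.4% and 58.1% lower, whereas all 6 members were lower with medians of -0.93 in R288D and -1.15 in sac3∆. From 30 to 100 RPKM the members' medians were -0.26 in R288D and -0.24 in sac3∆, beside 0.03 in R288D and 0.05 in sac3∆ in other features. From 100 to 300 RPKM the 6 members were closer to the rest in R288D, with a median of -0.22 beside -0.17 and 3 of 6 lower beside 49.1%, while in sac3∆ the median was -0.42 beside -0.16 and 4 of 6 were lower beside 49.3%. From 1 to 30 RPKM the 6 members had medians of -0.10 in R288D and -0.14 in sac3∆, beside 0.16 and 0.17 in other features.

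**Figure D5:**
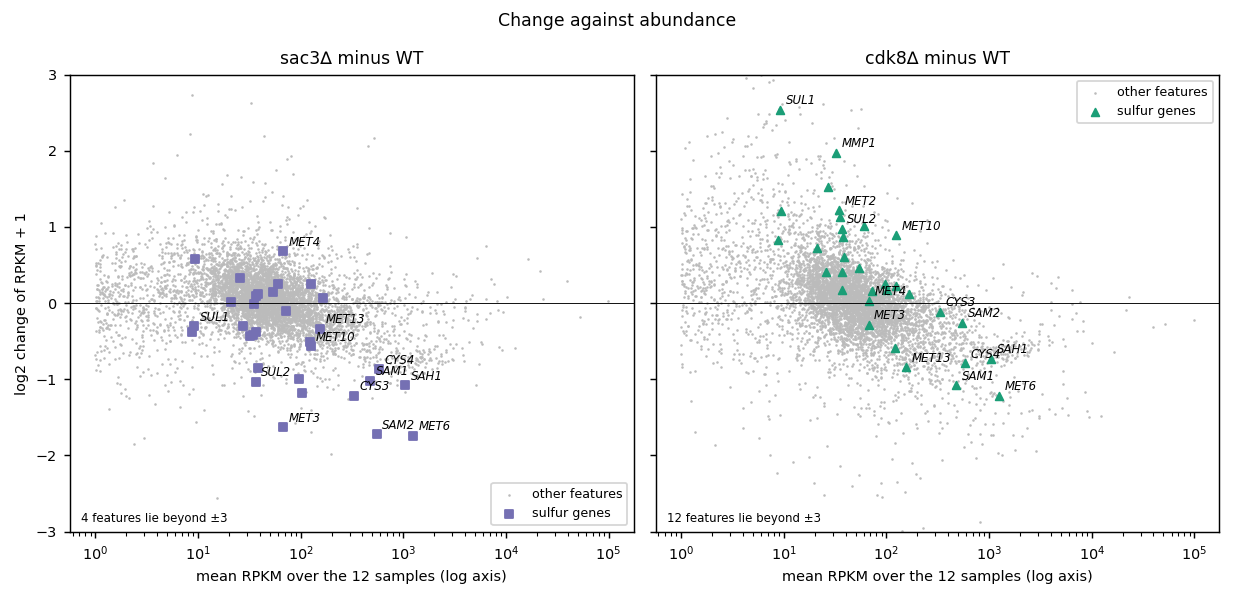
Log2 change of RPKM + 1 against WT plotted on mean RPKM (log axis) for sac3∆ and cdk8∆, with the sulfur genes coloured and all other features grey. The grey cloud slopes down more in cdk8∆ than in sac3∆. In cdk8∆ the sulfur genes at low abundance lie above it and those over 300 RPKM lie within it.

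Of 28 further genes of sulfur metabolism and of the ligase that contains Met30 (homoserine supply, methylthioadenosine salvage and polyamines, glutathione, methionine sulfoxide reduction, by-product removal, other sulfur sources, ligase subunits), 2 were higher and 14 lower in R288D than in WT, beside 26.3% and 24.4% of all features. In sac3∆ the counts were likewise 2 higher and 14 lower, beside 27.4% and 24.1%. In cdk8∆ 9 were higher and 6 lower, beside 31.5% and 30.6%, so that these counts were near or below those shares. After quantile normalization 16 of the 28 genes were higher and 5 lower. Among all features tested 1810 were then higher and 1722 lower, instead of 1926 and 1876. With that scaling the higher genes of this list thus lay above the share of all features. Of the 6 genes of other sulfur sources 5 were higher in cdk8∆, each by at least 1 on the log2 scale, beside 31.5% of all features higher and 4.59% higher by that much. SEO1, JLP1 and BDS1 are low in abundance, at 1 to 30 RPKM on average, where 48.1% of other features were higher in cdk8∆. SSU1, the sulfite efflux pump, stood at 48.7, 51.8 and 47.8 RPKM in R288D, 56.5, 50.8 and 48.3 RPKM in sac3∆, 104, 106 and 105 RPKM in cdk8∆, and 34.9, 35.9 and 35.2 RPKM in WT. It rose in R288D (0.47 ± 0.06), sac3∆ (0.54 ± 0.06) and cdk8∆ (1.54 ± 0.06), in contrast to SUL2, which fell in the sac3 mutants. YCT1, a cysteine transporter, rose in the same 3 strains, by 0.77 ± 0.15 in R288D, 0.96 ± 0.15 in sac3∆ and 1.32 ± 0.15 in cdk8∆.

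In cdk8∆ the permease gene SEO1 averaged 20.7 ± 2.15 RPKM, against 3.54 ± 0.755 RPKM in WT (2.27 ± 0.15). JLP1, a dioxygenase that releases sulfite from sulfonates, averaged 11.8 ± 0.444 RPKM in cdk8∆ and 3.83 ± 0.692 RPKM in WT (1.42 ± 0.17). BDS1, a sulfatase, averaged 36.0 ± 0.575 RPKM in cdk8∆ and 17.2 ± 1.51 RPKM in WT (1.03 ± 0.08; SD, n = 3 each).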

How the data were processed

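RNA was sequenced from 12 samples after removal of ribosomal RNA. The authors deposited 1 table of RPKM values; per the submitters' processing notes the tools were TopHat2 2.0.9, HTSeq 0.5.4p3, edgeR, limma and R 3.0.1, with build R64, in roles not given, and the strand setting is not given in the sources used here. Whole reads were recovered from RPKM and R64 exon lengths for 6162 features, with 99.34 to 99.67% of values under 300 reads whole within 0.1 read. Limma 3.58.1 in R 4.3.3 was fitted to log2(RPKM + 1) with 1 mean per group, a mean trend and 8 residual degrees of freedom. The fit used 6124 features whose mean reached 1 RPKM. It was tested on simulated data, where a single draw exceeded the limit set on false calls and so failed. The rule was then changed to the mean over repeated draws, and the fit met the changed rule. Log2 changes understate those of low genes. P-values were adjusted by Benjamini-Hochberg within each of 6 comparisons. Limma's SE ran from 0.04 to 0.26 for the members (median of features 0.07). Python 3.11.15, pandas 2.3.3, numpy 2.4.6 and matplotlib 3.10.9 were used. All 33 members, and other list genes changed by at least 1 on the log2 scale against WT, may be named. The members and lists were chosen with earlier results of these data known. Alternatives were another pseudocount, filter, scaling, sample set or variance model, and each sample left out.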

Additional observations from a re-analysis of the deposited data

How the results depend on the processing

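Over 192 changes of members under 21 alternatives, 3906 of 4014 values kept their side of the threshold (3855 also kept their sign, and 51 turned sign with no call on either side), 45 gained a call, 55 lost one and 8 reversed, meaning a sign change with a call on at least 1 side; 104 of 126 calls held throughout. All 8 of these came with quantile normalization: CYS3 (0.40), SAM2 (0.36) and SAH1 (0.029) in cdk8∆ minus WT, MET13 (0.15) in R288D minus WT, CYS4 (-0.25), SAH1 (-0.19) and SAM1 (-0.20) in R288D minus cdk8∆, and SAM1 (-0.19) in sac3∆ minus cdk8∆; the cause was not tested. Fitting only R288D and sac3∆ called 17 features and 1 member instead of 84 and 4, with fewer samples to estimate the spread.

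Leaving out 1 sample at a time gave 53 to 468 features and 3 to 9 members in R288D minus sac3∆, 2730 to 3163 and 21 to 24 in R288D minus WT, 2788 to 3436 and 20 to 23 in sac3∆ minus WT, 3393 to 4031 and 26 to 30 in cdk8∆ minus WT, 3513 to 4121 and 24 to 25 in sac3∆ minus cdk8∆, and 3559 to 3991 and 23 to 26 in R288D minus cdk8∆. The rises of SSU1, YCT1 and BDS1 in cdk8∆ were called under all 21 alternatives. Those of SEO1 and JLP1 were called under each alternative that tested them, since the filter at 10 RPKM left both untested.

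Samples with the same replicate number did not deviate together (correlations of -0.29 to 0.16 over 18 pairs), so the numbers do not pair the samples. With the replicate block, 22 members and 3009 features were called in R288D minus WT, and 20 and 3085 in sac3∆ minus WT. In cdk8∆ minus WT 29 members and 3725 features were called, and in R288D minus sac3∆ 4 and 63. Without the block the features called were 3108, 3156, 3802 and 84, in the same order. The calls of SAM4 in R288D minus WT (limma adjusted p = 0.051) and MUP3 in sac3∆ minus WT (0.053) were lost with the block. A filter at 10 RPKM left SUL1, MET8 and MET32 untested, and low read numbers limit these genes most.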
